A study of Homo sapiens with 16 samples.

Results

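The genes described here encode the core of Polycomb repressive complex 2 (EZH2, EZH1, SUZ12 and EED), the DNA methyltransferases DNMT1, DNMT3A and DNMT3B, the methylation maintenance factor UHRF1, and TET1 and TET2, which oxidise 5-methylcytosine. They were taken by symbol from the 60676 Ensembl gene IDs of the count tables. All 10 were found, and all 10 passed the filter on low counts that left 21810 genes for testing. Their transcripts were measured in LNCaP cells, a prostate cancer line that was derived from a lymph node metastasis and responds to androgen, by total RNA sequencing after removal of ribosomal RNA. The 4 groups of 4 libraries were RB-p53 double knockout (DKO) cells with 50 µM enzalutamide (EZ), DKO cells with DMSO, WT cells with EZ and WT cells with DMSO. EZ is an androgen receptor antagonist, DMSO is its solvent, and each was given for 6 days in medium with 10% fetal bovine serum. DKO cells had been made from LNCaP by CRISPR-Cas9 editing of both tumour suppressors. Whether they were 1 clone or a pool, and whether the 4 replicates were separate cultures, is not given in the sources used here, so p-values measure the spread between these libraries.

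PRC2 places methyl groups on lysine 27 of histone H3, a mark of repressed chromatin. EZH2 is its catalytic subunit in dividing cells, EZH1 is the related catalytic subunit that is more typical of resting cells, and SUZ12 and EED are needed for activity with either. DNMT1 copies CpG methylation onto new DNA after replication and is brought there by UHRF1, which binds half-methylated CpG sites, whereas DNMT3A and DNMT3B can methylate unmethylated DNA and the TET enzymes start its removal. The RB protein holds back E2F transcription factors, which drive many replication genes, and EZH2, DNMT1 and UHRF1 are known E2F targets. EZH2 is also known for high levels in advanced prostate cancer.

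Libraries held 11823438 to 47678648 counts, with 30166 to 35275 detected genes. RB1 stood at 9.04 to 13.4 CPM (counts scaled to a common library size) in the 8 DKO libraries and 95.6 to 128 CPM in the 8 WT libraries. All 10 luminal prostate markers were detected in every group, with summed levels of 2487 to 3355 CPM in DKO EZ, 2681 to 3089 CPM in DKO DMSO, 4884 to 5068 CPM in WT EZ and 3886 to 4989 CPM in WT DMSO. Markers of other cell types summed to at most 51.1 CPM in DKO libraries and 37.9 CPM in WT libraries, most of it COL1A1 and VWF, and CD3E had no counts in any library. The mean log2 CPM of 20 mitosis genes set 3 libraries apart, at 3.85 in DKO EZ 1, 3.08 in WT EZ 1 and 3.66 in WT DMSO 4, against 5.23 to 6.47 in the other 13. The S phase genes were lowest in the same 3 libraries. For results that rest on those libraries, fits without 1 of them or without both EZ replicates 1 are given below. No fit left out all 3 together.

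Compared per kilobase of merged exons, so that genes of unequal length can be set side by side, SUZ12 was the most abundant of the 10 transcripts in every group, at a mean of 22.6 to 27.5 CPM per kb over the 4 groups. DNMT1 had rank 2 in every group, at 12.9 to 20.3 CPM per kb, and its libraries overlapped those of SUZ12 in DKO DMSO alone. EZH2 had rank 3 in DKO EZ, DKO DMSO and WT DMSO, at 6.48, 8.20 and 7.58 CPM per kb. In WT EZ, EZH1 (7.15 CPM per kb) stood above EZH2 (5.52 CPM per kb), with overlapping libraries. DNMT3B stood at 3.66 CPM per kb in DKO EZ and 4.26 in DKO DMSO, at ranks 7 and 6, against 2.08 in WT EZ and 2.06 in WT DMSO, at ranks 8 and 10. UHRF1 was last in DKO EZ and WT EZ, at 2.41 and 1.28 CPM per kb. Neighbours in the lower part of this order mostly overlapped, so their ranks do not separate them beyond the spread. Across the 16 libraries UHRF1 varied most, 48.7-fold in CPM between its highest and lowest library (13 to 582 counts), and TET2 least, by 1.44-fold.

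**Figure D1:**
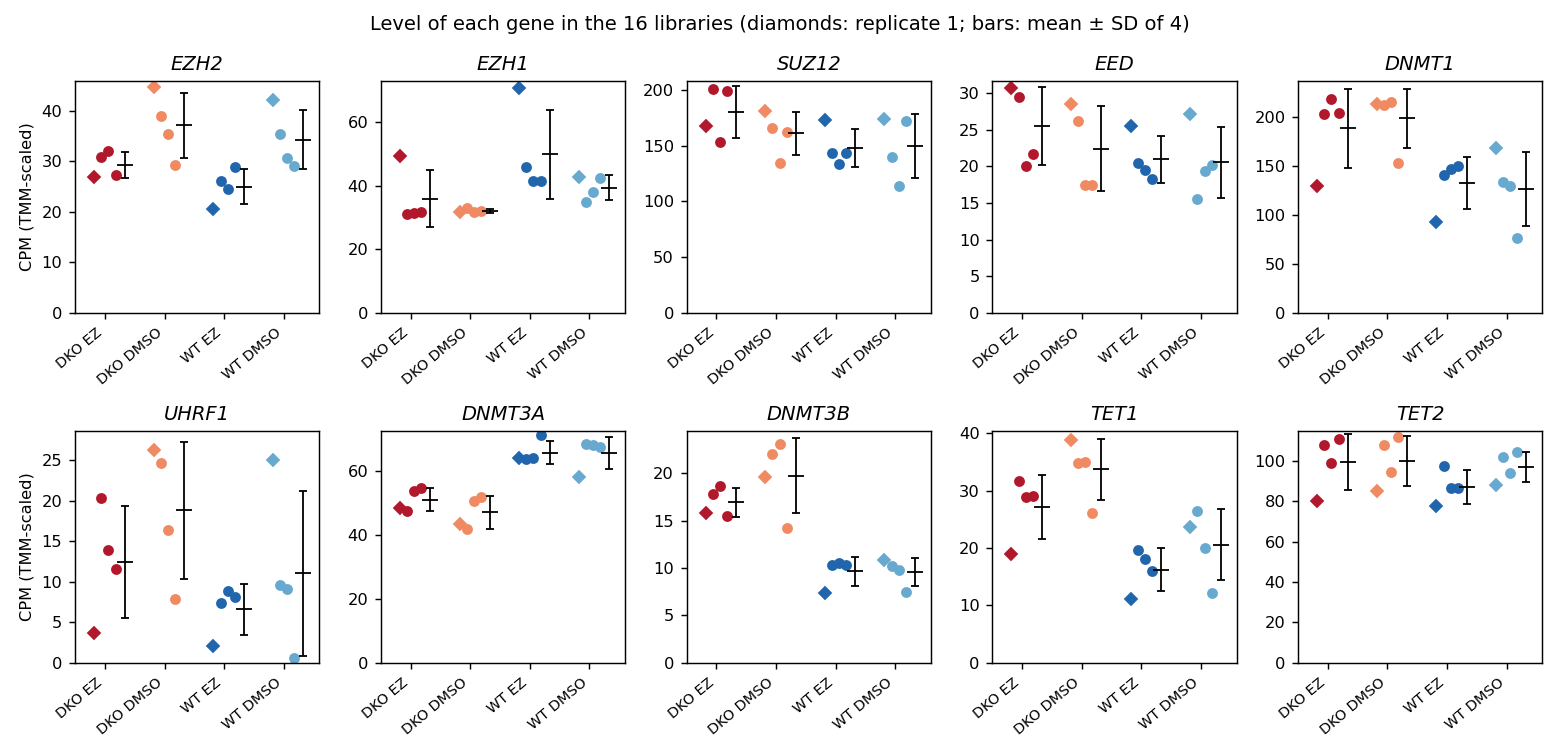
Level of each gene in CPM on scaled library sizes, with the groups DKO EZ, DKO DMSO, WT EZ and WT DMSO on the horizontal axis. Points are libraries, diamonds are replicate 1 and bars are the mean ± SD of 4. DNMT3B in DKO (14.2 to 23.1 CPM) lies above WT (7.37 to 10.8 CPM), DNMT3A in DKO (42.0 to 54.7 CPM) lies below WT (58.3 to 71.2 CPM), and UHRF1 spreads widely within every group.

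Promoter sequences were available for all 10 genes at 21 annotated starts (RefSeq, GRCh38.p14, 250 bases before to 50 bases after each start). They were searched on both strands for the E2F letters TTTCGCGC and TTTGGCGC, which 403 of 35116 promoters of the same length held (1.15%), and for the CHR letters TTTGAA and TTCGAA, a motif of G2/M promoters, which 5742 held (16.4%). E2F letters were found at 3 of the 21 starts, 1 each for EZH2, DNMT1 and UHRF1, and so for 3 of the 10 genes. The shares over all promoters are per promoter and were not matched for CpG sites. CHR letters were found for SUZ12, DNMT3A and TET2, each at 1 start, and overlapped no E2F match. The windows of the 3 genes with E2F letters are shown for those matches. That of DNMT3B is shown because its fold change was the largest among the genes that passed the test between the genotypes. TET1, whose transcript followed the mitosis genes (given below), held no E2F letters. Each runs from 200 bases before to 20 bases after the start, with any E2F match in capitals.
EZH2 (chr7:148884272-148884491, minus strand): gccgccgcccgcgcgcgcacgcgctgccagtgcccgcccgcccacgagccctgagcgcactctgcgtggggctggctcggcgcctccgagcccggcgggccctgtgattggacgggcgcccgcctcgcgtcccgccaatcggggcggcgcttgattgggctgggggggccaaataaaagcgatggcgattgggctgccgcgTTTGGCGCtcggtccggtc
DNMT1 (chr19:10194934-10195153, minus strand): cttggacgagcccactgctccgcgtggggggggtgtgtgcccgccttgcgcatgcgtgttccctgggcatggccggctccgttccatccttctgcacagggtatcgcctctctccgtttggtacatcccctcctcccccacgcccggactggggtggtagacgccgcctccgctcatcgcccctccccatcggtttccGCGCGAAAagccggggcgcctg
UHRF1 (chr19:4909944-4910163, plus strand): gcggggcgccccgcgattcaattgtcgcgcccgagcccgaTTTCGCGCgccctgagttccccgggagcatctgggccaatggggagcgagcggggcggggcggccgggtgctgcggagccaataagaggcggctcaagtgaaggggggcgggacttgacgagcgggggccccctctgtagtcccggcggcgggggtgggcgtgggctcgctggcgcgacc
DNMT3B (chr20:32779652-32779871, plus strand): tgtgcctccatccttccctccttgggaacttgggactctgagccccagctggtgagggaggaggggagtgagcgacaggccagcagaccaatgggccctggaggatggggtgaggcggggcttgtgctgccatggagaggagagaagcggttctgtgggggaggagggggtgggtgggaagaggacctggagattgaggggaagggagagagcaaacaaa
The match lies just inside the EZH2 transcript, across the DNMT1 start on the opposite strand, and 160 bases before the UHRF1 start. These promoters held 46, 30 and 40 CpG sites per 300 bases for EZH2, DNMT1 and UHRF1, and 3 for DNMT3B, beside a median of 14 over all promoters. The start of DNMT3B used here lies downstream of the gene's first base in GENCODE v29 (chromosome 20, 32762385 to 32809356), so other starts of this gene were not searched. A match is a description of the letters and not a measured binding site.

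DNMT3B, a de novo methyltransferase, had the clearest difference between the genotypes. Its level was 15.8, 17.8, 18.6 and 15.5 CPM in DKO EZ libraries 1 to 4, against 7.37, 10.3, 10.51 and 10.3 CPM in WT EZ libraries. In DMSO it was 19.7, 22.0, 23.1 and 14.2 CPM in DKO libraries and 10.8, 10.2, 9.75 and 7.43 CPM in WT libraries. Every DKO library was above every WT library in both treatments. The log2 fold change was 0.81 ± 0.17 (SE) in EZ (edgeR adjusted p = 0.0025) and 1.05 ± 0.17 in DMSO (edgeR adjusted p = 3.35e-04), which are 1.75-fold (95% interval 1.37 to 2.25) and 2.07-fold (1.61 to 2.65). Both calls remained with any 1 library left out. In bulk RNA, more or fewer cells that express a gene and more or less of its RNA per cell cannot be told apart.

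DNMT3A, the other de novo methyltransferase, was lower in DKO. Its libraries stood at 48.4, 47.4, 53.9 and 54.7 CPM in DKO EZ, against 64.3, 63.8, 64.2 and 71.2 CPM in WT EZ. They stood at 43.5, 42.0, 50.8 and 51.9 CPM in DKO DMSO, against 58.3, 68.6, 68.2 and 67.7 CPM in WT DMSO. No DKO library reached the WT range in either treatment. The log2 fold change was −0.36 ± 0.10 in EZ (edgeR adjusted p = 0.015) and −0.48 ± 0.10 in DMSO (edgeR adjusted p = 0.0025). The call in EZ was lost without DKO EZ 1 (adjusted p = 0.051), DKO EZ 2 (0.11) or WT EZ 4 (0.078), and without both EZ replicates 1 (0.071). Scaling by library totals in place of the trimmed mean moved the median log2 fold change of all genes to 0.23 in EZ and 0.14 in DMSO, against −0.013 and −0.060, and DNMT3A then stood at −0.12 (adjusted p = 0.45) and −0.28 (adjusted p = 0.067).

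Set against each other per kilobase within a library, where scaling cancels, the ratio of DNMT3B to DNMT3A separated the genotypes. It was 0.863 ± 0.101 (SD, n = 4) in DKO EZ and 1.11 ± 0.276 in DKO DMSO, against 0.380 ± 0.0588 in WT EZ and 0.381 ± 0.0805 in WT DMSO. The lowest DKO library, at 0.712, lay above the highest WT library, at 0.482. The ratio describes an unequal change of the pair and does not say which transcript moved.

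**Figure D2:**
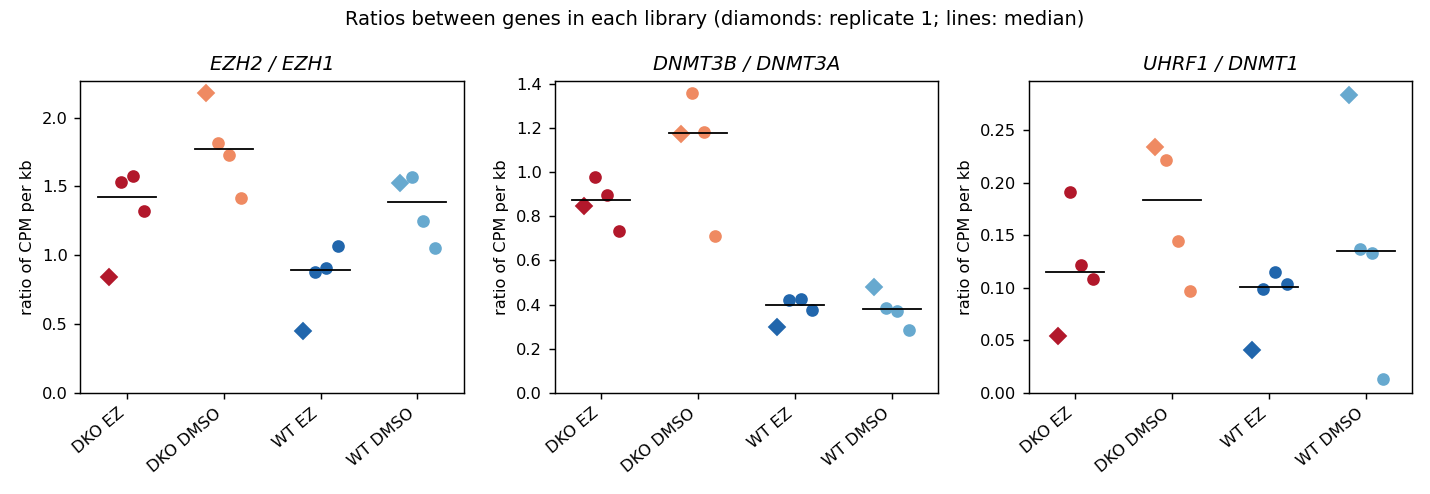
Ratios of CPM per kb between pairs of genes in each library, by group (DKO EZ, DKO DMSO, WT EZ, WT DMSO). Diamonds are replicate 1 and lines are medians. DNMT3B over DNMT3A runs from 0.712 to 1.36 in DKO and from 0.285 to 0.482 in WT, while the ranges of EZH2 over EZH1 and of UHRF1 over DNMT1 overlap between the genotypes.

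DNMT1, the maintenance methyltransferase, was higher in DKO under DMSO with a call close to the threshold. Its level was 129, 203, 219 and 204 CPM in DKO EZ, against 92.5, 141, 147 and 149.9 CPM in WT EZ. Under DMSO it was 214, 212, 216 and 153 CPM in DKO, against 168, 133, 129 and 76.1 CPM in WT. The groups overlapped in both treatments, through DKO EZ 1 in EZ and through DKO DMSO 4 and WT DMSO 1 in DMSO. The log2 fold change was 0.51 ± 0.22 in EZ (edgeR adjusted p = 0.12, not called) and 0.65 ± 0.22 in DMSO (edgeR adjusted p = 0.049). With both EZ replicates 1 left out, the value in EZ was 0.53 (edgeR adjusted p = 0.11). The call in DMSO was lost without DKO DMSO 1 (adjusted p = 0.076), 2 (0.075) or 3 (0.075), without WT DMSO 2 (0.072), 3 (0.083) or 4 (0.095), and without WT EZ 2 (0.052). Of the DNMT1 exons, 83 base pairs are shared with S1PR2 on the same strand, a gene with 96 to 470 counts per library beside at least 1670 for DNMT1.

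UHRF1, the partner of DNMT1, was measured at 3.65, 20.4, 13.96 and 11.6 CPM in DKO EZ, against 1.99, 7.30, 8.85 and 8.13 CPM in WT EZ. Under DMSO it was measured at 26.3, 24.7, 16.4 and 7.82 CPM in DKO, against 24.97, 9.58, 9.05 and 0.540 CPM in WT. The groups overlapped in both treatments, and the 3 lowest of the 16 libraries were those with low mitosis genes. The log2 fold changes of 0.90 (95% interval −0.75 to 2.56) in EZ and 0.77 (−0.86 to 2.40) in DMSO did not pass the test (edgeR adjusted p = 0.48 and 0.55), and the intervals run from 0.593-fold to 5.88-fold in EZ and from 0.550-fold to 5.28-fold in DMSO. Without both EZ replicates 1 the value in EZ was 0.92 (adjusted p = 0.52). In DMSO it was 0.41 without WT DMSO 4 (adjusted p = 0.72), the library with low mitosis genes, and 1.61 without WT DMSO 1 (adjusted p = 0.20). The ratio of UHRF1 to DNMT1 per kb had group means of 0.119, 0.174, 0.0894 and 0.142 in DKO EZ, DKO DMSO, WT EZ and WT DMSO, with overlapping ranges.

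TET1, an oxidase of 5-methylcytosine, was higher in DKO in both treatments. It stood at 19.0, 31.8, 28.95 and 29.1 CPM in DKO EZ, against 11.1, 19.7, 18.1 and 15.9 CPM in WT EZ. It stood at 38.8, 34.9, 35.0 and 26.2 CPM in DKO DMSO, against 23.7, 26.5, 19.97 and 12.2 CPM in WT DMSO. The overlap was limited to DKO EZ 1, which fell below WT EZ 2, and to DKO DMSO 4, which fell just below WT DMSO 2. The log2 fold change was 0.75 ± 0.23 in EZ (edgeR adjusted p = 0.027) and 0.71 ± 0.23 in DMSO (edgeR adjusted p = 0.037). In EZ the call was lost without DKO EZ 2 (0.052), WT EZ 1 (0.077) or WT EZ 4 (0.054), and in DMSO without DKO DMSO 1 (0.068), 2 (0.054) or 3 (0.052) or WT DMSO 3 (0.069) or 4 (0.071). With both EZ replicates 1 left out, the call in EZ remained (log2 0.76, edgeR adjusted p = 0.030).

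TET2 was expressed at a steady level, from 80.2 to 111 CPM in DKO EZ, 85.2 to 112 CPM in DKO DMSO, 77.5 to 97.8 CPM in WT EZ and 88.3 to 104 CPM in WT DMSO. Its log2 fold change between the genotypes was 0.19 (95% interval −0.061 to 0.44) in EZ and 0.039 (−0.21 to 0.29) in DMSO, not called in either (edgeR adjusted p = 0.30 and 0.87).

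The subunits of PRC2 did not pass the test between the genotypes. EZH2 stood at 26.8, 30.9, 32.1 and 27.3 CPM in DKO EZ, against 20.5, 26.1, 24.4 and 28.8 CPM in WT EZ. Under DMSO it stood at 44.6, 39.0, 35.5 and 29.3 CPM in DKO, against 42.0, 35.4, 30.6 and 28.99 CPM in WT. The log2 fold change of EZH2 was 0.23 (95% interval −0.086 to 0.54) in EZ and 0.11 (−0.20 to 0.43) in DMSO (edgeR adjusted p = 0.32 and 0.66), with upper bounds of 1.46-fold in EZ and 1.34-fold in DMSO. EZH1, the other catalytic subunit, stood at 49.4, 31.2, 31.5 and 31.9 CPM in DKO EZ, against 70.9, 45.9, 41.5 and 41.7 CPM in WT EZ. In DMSO its 4 DKO libraries lay at 31.7, 33.2, 31.6 and 31.98 CPM, all below the 42.7, 34.8, 38.0 and 42.5 CPM of WT. Its log2 fold change was −0.47 ± 0.17 in EZ (edgeR adjusted p = 0.064) and −0.30 ± 0.17 in DMSO (edgeR adjusted p = 0.27), short of the threshold. Leaving out replicate 1 of both EZ groups, in which EZH1 was highest, gave −0.43 in EZ with an adjusted p of 0.019. With single libraries left out the value ran from −0.65 to −0.25 and was called in 2 of 16 fits, with an adjusted p of 0.011 without DKO EZ 1 alone and of 0.31 without WT EZ 1 alone.

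SUZ12 and EED, the subunits shared by both catalytic forms, had overlapping libraries throughout. SUZ12 ran from 153 to 201 CPM in DKO EZ, 135 to 181 CPM in DKO DMSO, 133 to 173 CPM in WT EZ and 114 to 174 CPM in WT DMSO, with log2 fold changes between the genotypes of 0.28 ± 0.14 in EZ and 0.10 ± 0.14 in DMSO (edgeR adjusted p = 0.19 and 0.69). SUZ12 counts are uncertain because the near-identical pseudogene SUZ12P1 had 291 to 892 counts per library. EED ran from 20.1 to 30.7 CPM in DKO EZ, 17.4 to 28.5 CPM in DKO DMSO, 18.2 to 25.5 CPM in WT EZ and 15.5 to 27.1 CPM in WT DMSO, with log2 fold changes of 0.28 ± 0.20 in EZ and 0.13 ± 0.20 in DMSO (edgeR adjusted p = 0.38 and 0.73). With library totals, SUZ12 passed the threshold in EZ (log2 0.53, adjusted p = 0.0024), as did TET2 (0.43, adjusted p = 0.014) and DNMT1 (0.74, adjusted p = 0.043).

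In all, DKO differed from WT for 3 of the 10 genes in EZ (2 higher, 1 lower) and for 4 of 10 in DMSO (3 higher, 1 lower), beside 20.7% of all tested genes in EZ (9.29% higher, 11.4% lower) and 18.6% in DMSO (8.91% higher, 9.7% lower). Libraries of the genotypes did not overlap for 2 of 10 genes in EZ and 3 of 10 in DMSO, beside 24% and 21.7% of all tested genes. The median log2 fold change of the 10 genes was 0.28 in EZ and 0.12 in DMSO, against −0.013 and −0.060 over all tested genes. DESeq2 called 3 and 4 of the 10.

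**Figure D3:**
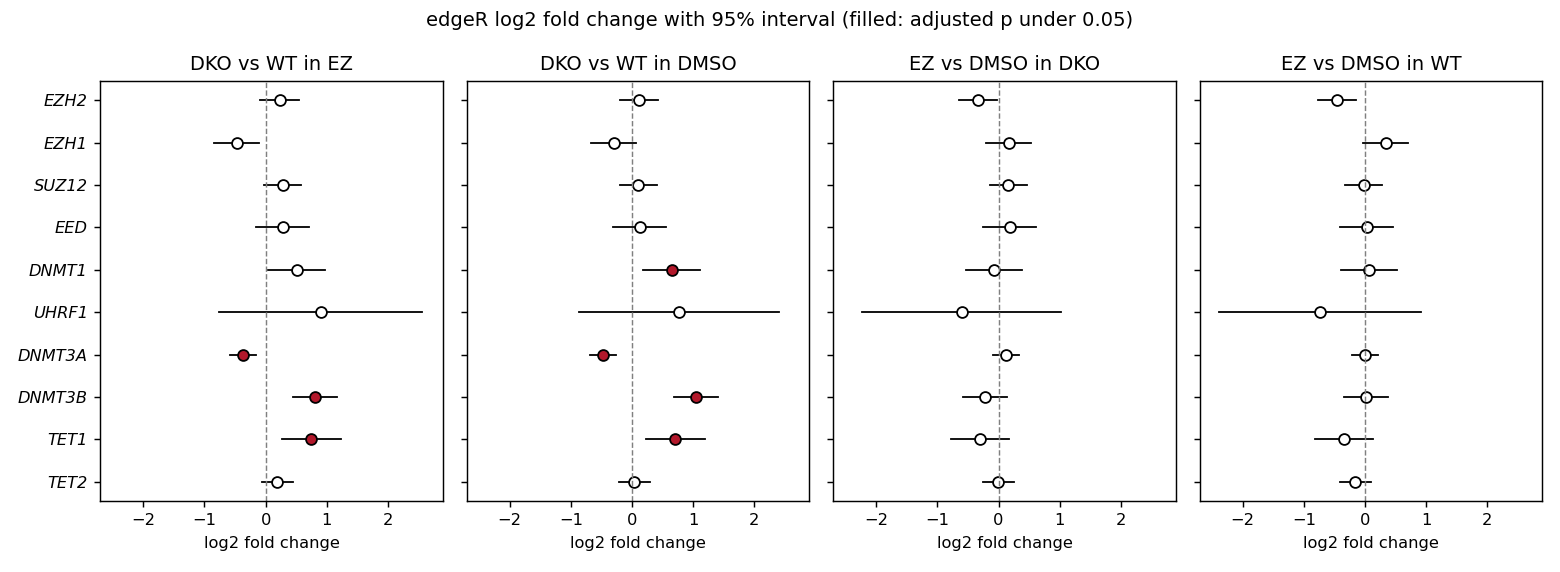
Log2 fold change (horizontal axis) of each gene with its 95% interval in the 4 pairwise comparisons, DKO against WT in EZ and in DMSO and EZ against DMSO in DKO and in WT. Filled points passed an edgeR adjusted p of 0.05. DNMT3B, TET1 and DNMT3A are filled in both genotype panels, DNMT1 in DMSO alone, and no point is filled in the drug panels, where the value of EZH2 lies at −0.34 in DKO and −0.46 in WT.

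Enzalutamide changed none of the 10 genes past the threshold in either genotype, where 1.48% of all tested genes were called in DKO and 3.32% in WT. These shares, 322 and 724 of 21810 genes, depended on the fit, with 1691 and 2641 called with the replicate block within genotype and with 73 to 451 in DKO (fewest without DKO DMSO 2) and 304 to 1051 in WT (fewest without WT DMSO 2) when 1 library was left out. A single gene, EZH2, had an unadjusted p under 0.05 in each genotype, and DESeq2 also called 0 genes in both. EZH2 had a log2 fold change of −0.34 ± 0.15 in DKO (edgeR adjusted p = 0.32), with overlapping libraries, and of −0.46 ± 0.15 in WT (edgeR adjusted p = 0.11). In WT every EZ library (20.5 to 28.8 CPM) was below every DMSO library (28.99 to 42.0 CPM). The libraries of EZ and DMSO did not overlap for 1 of the 10 genes in WT, beside 9.59% of all tested genes, and for 0 in DKO, beside 9.61%. EZH1 had positive values, 0.16 ± 0.17 in DKO (edgeR adjusted p = 0.79) and 0.34 ± 0.17 in WT (edgeR adjusted p = 0.37), and the value in WT was 0.14 without WT EZ 1. The ratio of EZH2 to EZH1 per kb was 1.32 ± 0.337 (SD, n = 4) in DKO EZ and 1.79 ± 0.314 in DKO DMSO, and 0.826 ± 0.266 in WT EZ and 1.35 ± 0.242 in WT DMSO, with overlapping ranges in each pair.

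The remaining drug values were small or imprecise. UHRF1 stood at −0.60 (95% interval −2.23 to 1.03) in DKO and −0.73 (−2.38 to 0.92) in WT, and TET1 at −0.31 ± 0.22 in DKO and −0.35 ± 0.23 in WT. DNMT3B stood at −0.22 ± 0.17 in DKO and 0.015 ± 0.17 in WT. The methyltransferases DNMT1 (−0.073 in DKO, 0.065 in WT) and DNMT3A (0.12 in DKO, 0.0037 in WT), the PRC2 subunits SUZ12 (0.16 in DKO, −0.019 in WT) and EED (0.18 in DKO, 0.029 in WT), and TET2 (−0.0060 in DKO, −0.16 in WT) lay within 0.2 of 0. Several of these near-zero signs turned with the scaling. The interaction, defined as the EZ effect of DKO minus the EZ effect of WT, passed the threshold for 0 of the 10 genes and for 0% of all tested genes by edgeR, with 0 of the 10 at an unadjusted p under 0.05 and 0 by DESeq2. Its values ran from −0.24 for DNMT3B to 0.18 for SUZ12, and that of EZH2 was 0.12 (95% interval −0.33 to 0.56).

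Within each genotype, several of the transcripts followed the level of the mitosis genes from library to library. TET1 had a Pearson r of 0.972 with the mean log2 CPM of the 20 mitosis genes over the 8 DKO libraries (Spearman rho 0.881) and of 0.921 over the 8 WT libraries (rho 0.905). UHRF1 had an r of 0.944 in DKO (rho 0.881) and 0.899 in WT (rho 0.905). The exact permutation p of r for these was 6.9e-04 and 0.0017 for TET1 and 0.0013 and 0.0056 for UHRF1, and adjusted values over the 20 relations computed were at most 0.019 for r and 0.024 for rho. Without the 2 libraries farthest from the median, DKO EZ 1 and DKO DMSO 2 in DKO and WT EZ 1 and WT DMSO 4 in WT, r was 0.928 and 0.681 for TET1 and 0.797 and 0.957 for UHRF1. The 8 libraries of a genotype hold both treatments, and all levels in a library share its scaling. The permutations exchanged all 8 libraries freely, so these p-values take no account of treatment or of the pairing of replicate numbers within a genotype.

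EZH2 had an r of 0.804 in DKO (rho 0.881) and 0.727 in WT (rho 0.857), with exact permutation p of 0.014 and 0.040, adjusted 0.036 and 0.080, and adjusted p of rho of 0.024 and 0.031. Without the 2 farthest libraries r for EZH2 was 0.861 and 0.937. DNMT1 had an r of 0.870 in DKO (rho 0.643) and 0.906 in WT (rho 0.595), with exact permutation p of 0.0055 and 0.013, adjusted 0.019 and 0.036, but the adjusted permutation p of rho was 0.24 and 0.27, and r was 0.602 and 0.590 without those libraries, so the relation rested largely on them. DNMT3B had an r of 0.753 in DKO (rho 0.881, exact permutation p = 0.022, adjusted 0.049 and 0.024 for rho) and 0.959 in WT (rho 0.571, exact permutation p = 0.0048, adjusted 0.019 and 0.27 for rho). Without the 2 farthest libraries r for DNMT3B was 0.928 in DKO and 0.515 in WT, so the relation in WT rested largely on WT EZ 1 and WT DMSO 4. EZH1 had negative values, −0.813 in DKO (rho −0.310) and −0.730 in WT (rho −0.476), which did not pass after adjustment (exact permutation, adjusted 0.15 and 0.082) and were −0.41 and −0.079 without those libraries. For SUZ12, EED, DNMT3A and TET2 the adjusted permutation p of r was at least 0.396 in both genotypes. Their r also changed without the 2 farthest libraries, with TET2 in DKO at −0.87 in place of 0.32 and SUZ12 in WT at 0.71 in place of −0.44.

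**Figure D4:**
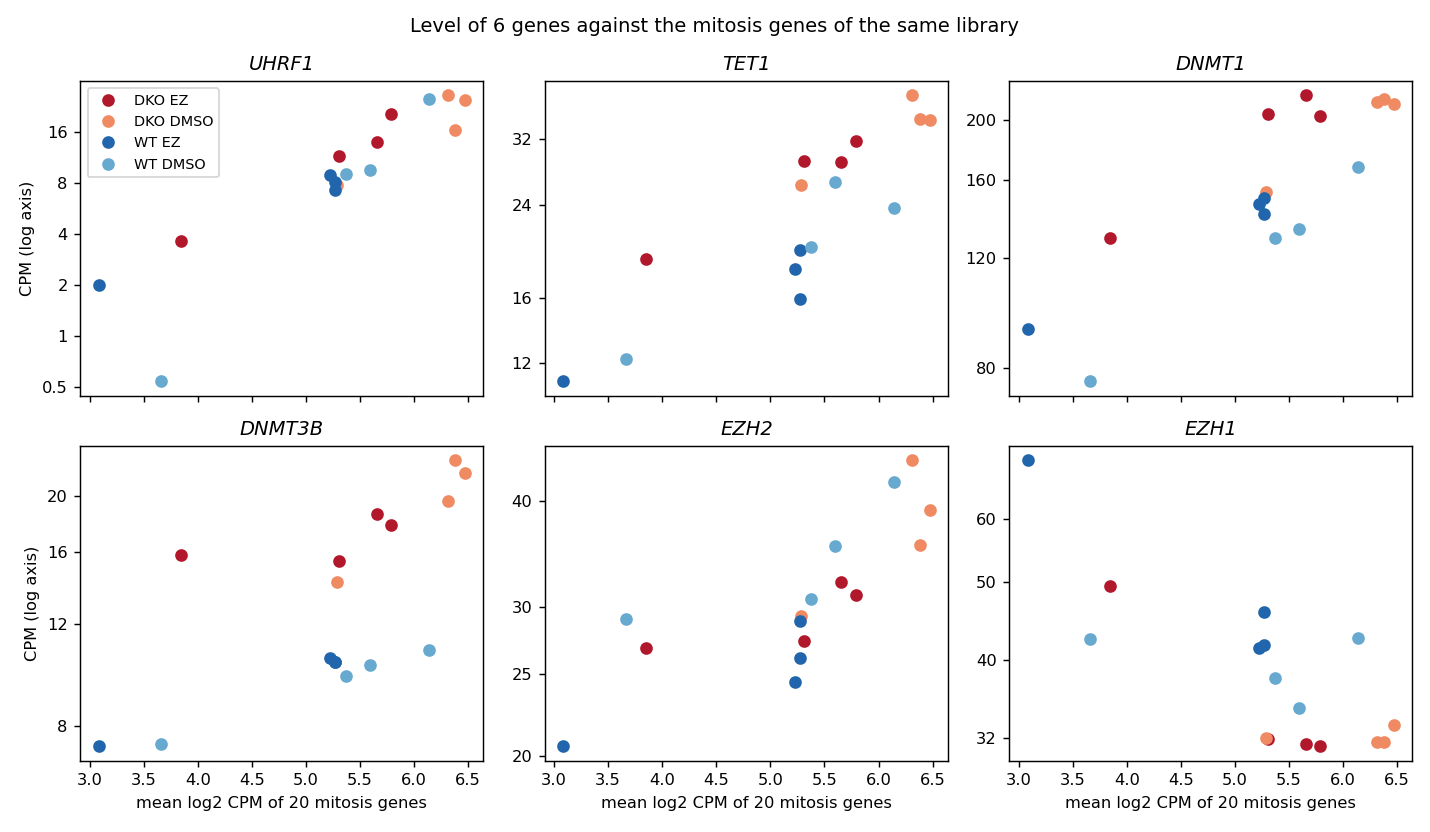
Level of 6 genes in CPM (vertical log axis) against the mean log2 CPM of 20 mitosis genes in the same library, coloured by group (DKO EZ, DKO DMSO, WT EZ, WT DMSO). UHRF1, TET1, DNMT1, DNMT3B and EZH2 climb from left to right, EZH1 does not, and every DNMT3B point of DKO (14.2 to 23.1 CPM) lies above every point of WT (7.37 to 10.8 CPM).

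The mitosis genes themselves did not pass the test between the genotypes, 0 of 20 in EZ and 0 of 20 in DMSO by edgeR, with 1 and 2 at an unadjusted p under 0.05 and 0 and 1 by DESeq2. The median log2 fold change of the 20 was nevertheless positive, at 0.40 in EZ and 0.80 in DMSO, beside −0.013 and −0.060 over all tested genes. Under the drug it was −0.87 in DKO and −0.51 in WT, beside 0.0057 and −0.029. Their level overlapped between the genotypes, at 3.85 to 5.79 in DKO EZ against 3.08 to 5.27 in WT EZ, and at 5.28 to 6.47 in DKO DMSO against 3.66 to 6.14 in WT DMSO. Of 20 S phase genes, 3 were higher in DKO in EZ and 4 in DMSO, and none lower, beside 9.29% and 8.91% of all tested genes called higher. The median log2 fold change of this list was 0.47 in EZ and 0.66 in DMSO. Among these CCNE2, the cyclin E2 gene, had a log2 fold change of 1.39 ± 0.21 in EZ and 1.38 ± 0.21 in DMSO, and MCM2, a helicase subunit, 1.32 ± 0.41 in EZ and 1.51 ± 0.42 in DMSO. MCM2 lost its call when any 1 of 8 libraries (EZ) or 2 libraries (DMSO) was left out, with adjusted p of up to 0.089 (without WT EZ 1) and 0.053 (without WT DMSO 3). Under EZ, 0 of either list was called in DKO or WT by edgeR or DESeq2, with 0 at an unadjusted p under 0.05. The part of cycling in the genotype values of DNMT1, TET1 and DNMT3B was not tested.

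The genes whose log2 CPM was most like that of each transcript were ranked by the lower of the Pearson r over the 8 DKO and the 8 WT libraries, among 14327 protein-coding genes and as a description. For DNMT1 these were RFC5 (r 0.967 in DKO, 0.980 in WT) and MCM5 (0.963, 0.991), for UHRF1 NCAPG2 (0.972, 0.970) and SPC24 (0.969, 0.972), for TET1 MMS22L (0.979, 0.964) and AADAT (0.9754, 0.962), and for DNMT3B PSMC3IP (0.954, 0.946) and FANCA (0.938, 0.953). For EZH2 they were ACADL (0.938, 0.932) and KLK2 (0.966, 0.922), and for EZH1 DGKD (0.923, 0.988) and PISD (0.919, 0.950). KLK2 is a well known androgen receptor target. The 8 libraries of a genotype hold both treatments, so differences between EZ and DMSO enter all of these r values. Their part was not tested. For SUZ12 they were ACTR2 (0.953, 0.971) and WAPL (0.936, 0.937), for EED OR2A7 (0.928, 0.923) and NOMO2 (0.964, 0.905), for DNMT3A TIGD5 (0.886, 0.851) and U2AF1L4 (0.837, 0.900), and for TET2 ADGRG6 (0.924, 0.940) and UGT2A3 (0.899, 0.924).

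The wider machinery was followed in 6 lists with 77 genes, of which 74 were tested. In EZ, 9 were higher and 8 lower in DKO than in WT, 23% of those tested, and in DMSO 8 were higher and 6 lower, 18.9%, close to the shares of all genes given above. Of 9 tested PRC2 partners, 2 in EZ and 3 in DMSO were higher in DKO and none lower. Over all tested genes, 9.29% were called higher in EZ and 8.91% in DMSO. PHF19, which guides PRC2 to chromatin, stood at 13.0 ± 1.91 CPM (SD, n = 4) in DKO EZ against 4.27 ± 0.292 CPM in WT EZ, and at 15.3 ± 0.734 CPM in DKO DMSO against 4.35 ± 1.20 CPM in WT DMSO. Its log2 fold changes were 1.60 ± 0.18 (edgeR adjusted p = 5.32e-06) and 1.82 ± 0.18 (edgeR adjusted p = 1.44e-06), each larger than that of any of the 10 genes. MTF2, its relative, had 0.48 ± 0.10 in EZ and 0.52 ± 0.10 in DMSO, and the histone-binding subunit RBBP4 had 0.56 ± 0.16 in DMSO, a call lost when any 1 of 4 libraries was left out (adjusted p of up to 0.088, without WT DMSO 2).

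Of 11 tested partners of DNA methylation, 2 were higher in DKO in each treatment, with 2 lower in EZ and 1 lower in DMSO. Over all tested genes, 20.7% were called in EZ and 18.6% in DMSO. CDCA7L had a log2 fold change of 1.63 ± 0.16 in EZ and 1.62 ± 0.16 in DMSO, and its relative CDCA7, which works with the remodeller HELLS in keeping DNA methylated, 1.12 ± 0.31 and 1.29 ± 0.31. USP7, which stabilises UHRF1 and DNMT1, had −0.51 ± 0.10 and −0.43 ± 0.10, the second lost when any 1 of 3 libraries was left out (adjusted p of up to 0.088, without DKO DMSO 4) and both lost with library totals (adjusted p = 0.062 and 0.15). AHCY, which clears the by-product of methyl transfer, had −0.80 ± 0.17 in EZ. Of 13 partners of DNA demethylation, 1 was higher and 2 lower in EZ and 1 was lower in DMSO, beside the same shares. TET3, the remaining TET enzyme, had 0.50 ± 0.12 in EZ, where NEIL2 had −0.47 ± 0.16, and GADD45B had −0.73 ± 0.22 in EZ and −0.93 ± 0.22 in DMSO. Leaving out any 1 of 14 libraries ended the call of NEIL2 (adjusted p of up to 0.21, without WT EZ 1), any 1 of 9 that of GADD45B in EZ (0.14, without DKO EZ 3), and DKO DMSO 3 that of GADD45B in DMSO (0.051). None of 8 methyl-CpG readers was called in either treatment by edgeR or DESeq2, with 1 in EZ and 0 in DMSO at an unadjusted p under 0.05.

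PRC1, the other Polycomb repressive complex, had 2 subunits higher and 2 lower in DKO in each treatment, of 21 tested. Calls in either direction covered 20.7% of all tested genes in EZ and 18.6% in DMSO. SCML2 had a log2 fold change of 0.70 ± 0.14 in EZ and 0.65 ± 0.14 in DMSO, and PCGF5 had −0.58 ± 0.20 and −0.85 ± 0.20. The calls of SCML2, and of PCGF5 in DMSO, remained with any 1 library left out. Those of PCGF5 in EZ, PCGF6 (0.58 ± 0.19) and CBX6 (−0.40 ± 0.14) in EZ and of PHC2 (0.43 ± 0.13) and PHC3 (−0.43 ± 0.13) in DMSO were each lost when any 1 of 2 to 16 libraries was left out, with adjusted p of up to 0.25 (CBX6, without WT EZ 4). Among 12 antagonists of Polycomb, 2 were higher and 2 lower in EZ and 1 was higher and 2 lower in DMSO. The shares over all tested genes given for PRC1 apply here too. NSD2, an H3K36 methyltransferase, had 0.46 ± 0.14 in EZ and 0.46 ± 0.14 in DMSO, and NSD3 had 0.33 ± 0.09 in EZ, whereas NSD1 (−0.29 ± 0.10 in EZ, −0.31 ± 0.10 in DMSO), KDM6A (−0.36 ± 0.11 in EZ) and ASXL2 (−0.27 ± 0.09 in DMSO) were lower. Each call of these antagonists was lost without 1 or more single libraries, with adjusted p of up to 0.33 (ASXL2, without DKO DMSO 4), and the lower ones were also lost with library totals.

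Under EZ, none of the 74 tested genes of these lists was called in DKO by edgeR or DESeq2, with 9 at an unadjusted p under 0.05. Over all tested genes, edgeR called 1.48% in DKO and 3.32% in WT. In WT 1 was called, SMUG1, which encodes a DNA glycosylase, at 36.8 ± 3.18 CPM (SD, n = 4) in EZ and 28.3 ± 1.60 CPM in DMSO (log2 0.38 ± 0.10, edgeR adjusted p = 0.039), a call lost when any 1 of 10 libraries was left out (adjusted p of up to 0.10, without WT DMSO 2). With 11 of the 74 at an unadjusted p under 0.05 in WT, DESeq2 also called 1. With the replicate number as a block within genotype, 7 were called in DKO and 9 in WT. The interaction called 0 of the 74 by edgeR, DESeq2 and the block within genotype, with 1 at an unadjusted p under 0.05.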

How the data were processed

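Total RNA libraries from 16 samples were placed in 4 groups of 4 by the labels' titles. Whole-number counts for each Ensembl gene were deposited without normalization, and STAR 2.7.3a and GRCh38 are named in the submitters' processing notes. Neither the counter nor its strand setting or annotation is given in the sources, so reads of overlapping genes and near-identical copies could have been divided. Gene symbols matched 60357 of 60676 IDs, and coordinates are from GENCODE v29. The depth of 11823438 to 47678648 counts per library (median 23919882) limits the precision of UHRF1 most, which had 13 counts in 1 library. Replicates of a group differed by more than sampling noise (chi-square per degree of freedom 5.37 to 104). This does not show that they were separate cultures. All 16 were kept.

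Counts were tested with edgeR 4.0.16 in R 4.3.3 by its quasi-likelihood F-test (robust) in a model of 4 group means, after filterByExpr (minimum count 10, minimum total 15) and trimmed-mean (TMM) scaling, with Benjamini-Hochberg adjustment over 21810 genes and a threshold of 0.05. The common dispersion was 0.0787 (biological variation 28.0%), with 12 residual degrees of freedom. SE and 95% intervals come from the F statistic. DESeq2 1.42.0 was an alternative, and the pipeline was tested on simulated data. CPM use TMM-scaled sizes. Alternatives were other scalings, no filter, a replicate block, a term for libraries with high RN7SL1 (above 1500 CPM), fits without single libraries, without both EZ replicates 1, without robust estimation or with only the groups compared. The main fit used no pairing. An alternative took replicate numbers as pairs within a genotype, since deviations of same-numbered libraries correlated at 0.326 to 0.664 in all 8 pairs there. Libraries of a genotype with different numbers ran from −0.57 to 0.511, which overlaps that range. Between genotypes same-numbered libraries ran from −0.13 to 0.674, and no pairing was assumed.

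Members, lists and tests were chosen with earlier results of these data known. All 10 genes were named in every comparison. Of each list, up to 4 members past the threshold with at least 1 CPM in the higher group were named, the 2 highest and the 2 lowest. Not every gene that this rule takes is reported here.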

Additional observations from a re-analysis of the deposited data

Results flagged for a closer look

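In 7 of 40 sets of 4 libraries, 1 library stood apart from the other 3 (its gap to the nearest, over the range of the set, was above Dixon's 95% limit, which chance passes in about 1 of 20 sets). EZH1 was high in DKO EZ 1, at 49.4 CPM beside 31.2 to 31.9 CPM in the other 3, and in WT EZ 1, at 70.9 CPM beside 41.5 to 45.9 CPM. DNMT1 was low in DKO DMSO 4, at 153 CPM beside 212 to 216 CPM, and in WT EZ 1, at 92.5 CPM beside 141 to 149.9 CPM. DNMT3B was low in WT EZ 1, at 7.37 CPM beside 10.3 to 10.51 CPM. DNMT3A was high in WT EZ 4, at 71.2 CPM beside 63.8 to 64.3 CPM, and low in WT DMSO 1, at 58.3 CPM beside 67.7 to 68.6 CPM. DKO EZ 1 and WT EZ 1 also had the lowest mitosis genes of their groups (3.85 and 3.08 mean log2 CPM), as did DKO DMSO 4 (5.28). The part of cycling in these values was not tested.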

How the results depend on the processing

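Of 800 values with 1 library left out, 740 kept their direction and side of the threshold, 18 lost a call, 3 gained one and 39 turned sign, and of 470 values under the other alternatives 430, 11, 9 and 20 did. The number of the 10 genes called between DKO and WT in EZ was 3, 5 with library totals, 5 with the replicate block (a number shared across genotypes, not a pairing, which added EZH1, adjusted p = 0.013, and SUZ12, 0.047) and 1 to 4 with 1 library left out. In DMSO it was 4, 2 with no filter on low counts and 2 to 4 with 1 library left out. With the block DNMT1 in DMSO had an adjusted p of 0.057. The block within genotype changed no call of the 10 genes under the drug (EZH2 in WT, adjusted p = 0.074). Over all genes, library totals gave 3966 higher and 1183 lower calls between DKO and WT in EZ and 3479 and 1082 in DMSO, against 2027 and 2481 and 1943 and 2115, and upper quartile scaling gave 2703 and 1952 in EZ. For the drug in WT, totals gave 447 and 361 and upper quartile scaling 513 and 401, against 491 and 233. The interaction called 0 genes, 4 with DESeq2, 1 with the block and 39 with the block within genotype.

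No value that turned sign was called, and most were near 0, the drug value of UHRF1 in WT (−0.73, against 0.088 without WT DMSO 1) being an exception. For the drug in WT, EED stood at −0.031 with upper quartile scaling, −0.046 with totals, −0.0079 with no filter and −0.066 without both EZ replicates 1, DNMT1 at −0.0095 and −0.015 with those scalings, DNMT3A at −0.067 and −0.075 with them, −0.032 with no filter and −0.018 with only the groups compared, and DNMT3B at −0.056, −0.062, −0.021 and −0.010 under the same settings. Without both EZ replicates 1 the drug values in DKO were −0.033 for EZH1, 0.063 for DNMT1 and 0.079 for TET2. EED between DKO and WT in DMSO was −0.022 with the RN7SL1 term, and the interaction of UHRF1 was −0.025 with the block and −0.35 with the block within genotype. With 1 library left out, drug values in DKO ran from −0.20 to 0.062 for DNMT1, −0.034 to 0.22 for EZH1 and −0.070 to 0.077 for TET2. In WT they ran from −0.091 to 0.27 for DNMT1, −0.037 to 0.053 for DNMT3A, −0.062 to 0.14 for DNMT3B, −0.072 to 0.22 for EED, −0.13 to 0.086 for SUZ12 and −1.12 to 0.088 for UHRF1. Interaction values ran from −0.35 to 0.0083 for DNMT1, −0.048 to 0.30 for EED, −0.39 to 0.016 for EZH1, −0.039 to 0.23 for EZH2, −0.14 to 0.19 for TET1 and −0.70 to 0.50 for UHRF1. The cause was not tested.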

Other observations

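Genes on which Polycomb and DNA methylation are known to act differed between the genotypes in both directions. Of 18 tested genes known to be repressed by EZH2 in prostate or other cancers, 6 were higher and 3 lower in DKO than in WT in EZ, and 7 were higher and 5 lower in DMSO, beside 20.7% of all tested genes called in EZ and 18.6% in DMSO. The median log2 fold change of the 18 was 0.49 in EZ and 0.17 in DMSO, beside −0.013 and −0.060. The secreted factor gene CCN3 had a log2 fold change of 2.58 ± 0.45 in EZ and 3.44 ± 0.50 in DMSO, and the BMP receptor gene BMPR1B 2.30 ± 0.49 and 2.34 ± 0.48. CCN3 was below 1 CPM on average in WT, at 0.590 CPM in EZ and 0.228 CPM in DMSO. BMPR1B ran from 4.50 to 22.0 CPM over the DKO DMSO libraries. PEBP1, a RAF kinase inhibitor, had −0.61 ± 0.11 in EZ. TNFSF10 had −2.43 ± 0.73 in DMSO, a call lost when any 1 of 5 libraries was left out (adjusted p of up to 0.22, without WT DMSO 4). In the drug comparisons 0 of the 18 were called by edgeR, with 0 in DKO and 3 in WT at an unadjusted p under 0.05. DESeq2 called 0 in DKO and 1 in WT, and 1 in DKO and 3 in WT were called with the replicate block within genotype.

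Among 14 tested germline genes that promoter methylation is known to silence in somatic cells, 4 in EZ and 3 in DMSO were higher in DKO and none lower, beside 9.29% and 8.91% of all tested genes called higher. The median log2 fold change of the 14 was 0.33 in EZ and 0.31 in DMSO. MAGEA4 stood at 141 ± 23.6 CPM (SD, n = 4) in DKO EZ against 12.01 ± 1.78 CPM in WT EZ, and at 166 ± 38.7 CPM in DKO DMSO against 16.9 ± 1.15 CPM in WT DMSO. MAGEA1 had a log2 fold change of 3.81 ± 0.20 in EZ and 3.50 ± 0.19 in DMSO. Both belong to a family of near-identical copies on the X chromosome, so their counts are uncertain. In WT cells EZ was accompanied by BRDT at 4.07 ± 1.77 CPM, against 0.830 ± 0.420 CPM in DMSO (log2 2.30 ± 0.41), and by TDRD1 at 3.94 ± 0.676 CPM, against 7.64 ± 1.55 CPM (log2 −0.96 ± 0.19), 1 higher and 1 lower call of the 14, while 0 were called in DKO by edgeR (2 at an unadjusted p under 0.05, 2 by DESeq2). Over all tested genes, 3.32% were called under EZ in WT and 1.48% in DKO by edgeR. With the replicate block within genotype 2 of the 14 were called in DKO and 5 in WT. Of 14 tested genes known for promoter methylation in prostate cancer, 1 was higher and 1 lower in DKO in EZ. In DMSO 2 were higher and 1 lower. Between the genotypes, 20.7% of all tested genes were called in EZ and 18.6% in DMSO. AOX1 was higher in both treatments (1.52 ± 0.48 and 1.94 ± 0.50), the call in EZ lost when any 1 of 5 libraries was left out (adjusted p of up to 0.10, without WT EZ 2). SFRP1 (1.36 ± 0.44) and CCDC181 (−1.45 ± 0.45) in DMSO were each lost without any 1 of 6, and the lower gene in EZ was ESR1 (−3.27 ± 0.88), below 1 CPM in both genotypes. Also below 1 CPM on average were AOX1 in WT (0.693 in EZ, 0.478 in DMSO), SFRP1 in WT DMSO (0.495) and CCDC181 in DKO DMSO (0.846). MGMT was the 1 gene of this list called under EZ in WT (0.45 ± 0.11, lost without any 1 of 5, adjusted p of up to 0.12 without WT EZ 1), and 0 were called in DKO by edgeR or DESeq2, with 1 at an unadjusted p under 0.05. With the block 1 of this list was called in DKO and 2 in WT.

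Of the 10 luminal markers, 5 were lower and none higher in DKO in each treatment, among them KLK3 (−4.07 ± 0.69 in EZ, −3.48 ± 0.64 in DMSO). Of all tested genes, 11.4% were called lower in EZ and 9.7% in DMSO. Of 14 markers of other cell types 5 passed the filter, and COL1A1 was higher in DKO (1.12 ± 0.17 in EZ, 0.92 ± 0.17 in DMSO). KRT14 was called lower in EZ (−3.17 ± 0.75, edgeR adjusted p = 0.0060), at means of 0.0792 CPM in DKO EZ and 0.833 CPM in WT EZ. Under EZ, 0 luminal markers were called in either genotype by edgeR, with 2 in each at an unadjusted p under 0.05 and 1 in DKO by DESeq2, and VWF was the 1 other marker called in WT (−1.29 ± 0.30, lost without any 1 of 5 libraries). DNA methylation and histone marks were not measured here.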
